A study of Mus musculus with 9 samples.

Results

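Many of the Hox, Fox and Tbx genes encode transcription factors tied to where in the embryo a cell arose or to its lineage. Other Fox genes are used by most cell types. All rows of the deposited table of read counts were taken whose symbol is Hox with a cluster letter a to d and a number, Fox with a letter a to s followed by a number, or Tbx with a number. These rules gave 98 of 24421 rows, of which 39 are Hox genes, 46 are Fox genes and 13 are Tbx genes. The Fox rows include Foxd2os and Foxl2os, which are noncoding transcripts started beside Foxd2 and Foxl2 on the opposite strand. The rules used names alone and no measured value.

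SB28, a mouse glioma line with GFP and luciferase genes, was grown in the brains of C57BL/6 mice implanted at 6 to 8 weeks of age. BAL101553 is an oral prodrug that disrupts microtubules and activates the spindle assembly checkpoint. The control group (3 libraries) came from vehicle-treated mice at day 21 and the BAL101553 group (3 libraries) from treated mice at a later day, 33 or 35 in different places of the study, so that treatment and time of growth cannot be told apart. According to the study's methods, tumor cells were sorted as GFP positive and CD45 and CD11b negative, while the labels call the material whole tissue. The study's text describes fewer samples per group than this table holds and cites a different deposit, so its days, sort and library methods are taken over from that description and are not stated by the labels of these libraries. A further 3 libraries are labelled as astrocytes from brain with BAL101553 as treatment, and no sort is described for them. All tumor libraries derive from 1 cell line, and nothing in the labels says how many mice stand behind a library, so p-values measure the spread between libraries, which may be technical.

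Libraries held between 22919523 and 34013875 counted reads. The members took between 0.0912% and 0.122% of the reads of a library. Levels are given in CPM, the reads of a gene relative to the total of its library, scaled by the TMM method over all 9 libraries, and 1 read was worth 0.0290 to 0.0447 CPM. A gene was called on in a group when it reached 1 CPM in each of its 3 libraries, at the floor when no library had more than 3 reads, and low otherwise. A library with 0 reads on a gene allows a level of up to 3 reads, which is 0.0871 to 0.134 CPM, and covers counting error only. Comparisons between genes use RPKM, the same scaled CPM divided by the kilobases of exon of the gene.

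The labelled cell types were set against marker lists. In the SB28 libraries all 8 oligodendrocyte genes together summed to between 21.3 and 31.3 CPM, 7 microglia and macrophage genes to between 1.92 and 3.89 CPM, 10 ependymal and motile cilia genes to between 1.56 and 2.26 CPM. The 4 choroid plexus genes summed to between 5.46 and 12.4 CPM and 6 T and NK cell genes to between 0.473 and 0.860 CPM. Other lists were not low in SB28 cells. The 8 astrocyte genes summed to 924 to 968 CPM in control and 674 to 788 CPM in BAL101553 libraries, nearly all of it Gja1, with 4 and 6 of the 8 on and Aqp4 at no more than 0.208 CPM. The 6 endothelial genes summed to 727 to 860 CPM in control and 511 to 638 CPM in BAL101553 libraries, above the 185 to 214 CPM of the libraries labelled astrocytes, and this was mostly Cdh5, with Cldn5 and Pecam1 at no more than 1.45 CPM. The 7 neuron genes summed to 63.5 to 87.9 CPM in control and 56.7 to 60.1 CPM in BAL101553 libraries, also above the 37.6 to 45.0 CPM of the libraries labelled astrocytes, mostly from Tubb3 and Stmn2, while Rbfox3 had 0 reads in all 6 SB28 libraries. The libraries labelled astrocytes held all 8 astrocyte genes on, with Slc1a2 at 6102, 4871 and 4887 CPM. They also held the oligodendrocyte genes at 28020 to 34990 CPM in sum, the microglia genes at 382 to 810 CPM, the ependymal genes at 647 to 1034 CPM and the choroid plexus genes at 1740 to 4109 CPM. These 3 libraries are therefore named by their label, since their transcripts include those of several other cell types. Fewer cells of a type and less RNA per cell cannot be told apart in such bulk samples.

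Hox genes lie in 4 clusters and are switched on in the order of their position, with genes at one end active in the hindbrain and those at the other end in the tail and limbs. The forebrain and midbrain develop without them. Forkhead (Fox) factors share a winged-helix DNA-binding domain and include the FoxO factors held in check by insulin signalling, the mitotic factor FoxM1, and FoxC, FoxF and FoxS1 of mesoderm and vessel walls. T-box (Tbx) factors pattern limbs, heart, skeleton and mural cells.

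Of 98 members, 26 were on in control SB28 cells, 23 in BAL101553 SB28 cells and 29 in the libraries labelled astrocytes. Over all 24421 rows, 46.2% were on in the control group, 46.8% in the BAL101553 group and 56.2% in the libraries labelled astrocytes, against 26.5%, 23.5% and 29.6% of the members. The families differed. No Hox gene was on in any group. Of the 46 Fox genes, 24 were on in control cells, 21 after BAL101553 and 24 in the libraries labelled astrocytes. Of the 13 Tbx genes, 2, 2 and 5 were on. In all, 38 members had 0 reads in all 9 libraries, and 29 of these were Hox genes. At the floor in all 3 groups were 50 members. On in no group were 39 Hox, 16 Fox and 8 Tbx genes, while 17 Fox and 2 Tbx genes were on in all 3 groups.

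The Hox clusters were almost without reads. All 39 Hox genes together took 17, 22 and 27 reads in control 1, 2 and 3, 26, 24 and 36 in BAL101553 1, 2 and 3, and 25, 35 and 18 in astrocytes 1, 2 and 3. The Hoxc cluster (chromosome 15, 102921103 to 103036852 on GRCm38) had 0 reads on its 9 genes in all 9 libraries. The Hoxb cluster (chromosome 11, 96194316 to 96368256) had 0 reads on its 10 genes in the 6 SB28 libraries and 17 reads in the libraries labelled astrocytes. At the floor in all 3 groups were 36 of the 39 Hox genes, and Hoxd1 and Hoxd8 were among the others.

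Hoxd8, a gene of the trunk, had 1, 1 and 0 reads in the control libraries, 1, 5 and 11 in the BAL101553 libraries and 0 in each library labelled astrocytes, and was too low to be tested between the SB28 groups. Hoxd1 showed the opposite distribution, with 0 reads in all 6 SB28 libraries and 16, 23 and 6 reads, or 0.505, 0.813 and 0.231 CPM, in astrocytes 1, 2 and 3. Set against 3 reads per library in the control group, its lowest such library was at least 1.87-fold higher. Hoxb4 had 3 reads in each library labelled astrocytes and Hoxb13 had 1, 2 and 3.

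Genes beside the clusters were not silent. Of 11 genes that flank the Hox clusters or lie close to them, 7 were on in each SB28 group and 8 in the libraries labelled astrocytes, and Evx1 and Evx2, the homeobox genes at the ends of the Hoxa and Hoxd clusters, had 0 reads throughout. Of 9 noncoding transcripts of the clusters, among them Hotair and Hottip, 0 were on in any group. The TALE homeodomain factors, which bind DNA together with Hox proteins, were present without them. Of the 9 TALE genes (Pbx, Meis and Pknox), 8 were on in each SB28 group and 9 in the libraries labelled astrocytes. Between the SB28 groups 1 of the 9 passed the test, beside 14.7% of all genes tested. This was Meis3, which fell from 9.87, 6.10 and 9.63 CPM to 2.50, 2.54 and 4.68 CPM (log2 fold change -1.38, SE 0.31, adjusted p = 0.0284 by the quasi-likelihood test of edgeR).

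Position in the brain is marked by other factors. Of 19 regional factors of the brain, 5 were on in control cells (Emx2, Pax6, Dlx2, En1 and Lmx1b), and 6 after BAL101553, where Dlx1 joined them. Lhx2, a cortical selector gene, had at most 9 reads in an SB28 library and 82.6 to 110 CPM in the libraries labelled astrocytes. Six3 likewise had at most 1 read in an SB28 library and Otx2 at most 3. In the libraries labelled astrocytes 12 of the 19 were on.

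The SB28 libraries held a group of Fox and Tbx genes best known from mesenchyme and vessel walls, and several of them are neighbours in the genome. Foxf1, Foxc2 and Foxl1 lie in this order on chromosome 8, with starts 31.8 and 43.6 kb from that of Foxf1, and Foxq1, Foxf2 and Foxc1 in this order on chromosome 13. Foxf1 and Foxf2 act in the mesenchyme around gut and vessels, Foxc1 and Foxc2 in vessels, meninges and skeleton. On chromosome 8, all 3 genes were on in both SB28 groups and 1 of the 3, Foxc2, was on in the libraries labelled astrocytes. Foxf1 (121084386 to 121088144) had 18.5, 10.2 and 20.5 CPM in control and 15.6, 12.9 and 18.9 CPM in BAL101553 libraries, against 0.851, 0.742 and 0.501 CPM in astrocytes 1, 2 and 3. Foxl1 had 2.86, 4.13 and 5.54 CPM in control and 3.48, 1.995 and 3.98 CPM in BAL101553 libraries, and 1 to 3 reads in each library labelled astrocytes. On chromosome 13, Foxf2 (31625816 to 31631403) was the highest of the 3 by RPKM, with 14.4 ± 3.76 (SD, n = 3) in control and 9.60 ± 4.08 (SD, n = 3) after BAL101553, and ranged from 13.9 to 41.6 CPM over the SB28 libraries. Foxc1 (31806633 to 31812476) stayed between 20.3 and 29.5 CPM in all 6 SB28 libraries. Foxq1, an epithelial and endothelial factor, was the lowest of the 3 with 0.958 to 4.33 CPM.

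**Figure D1:**
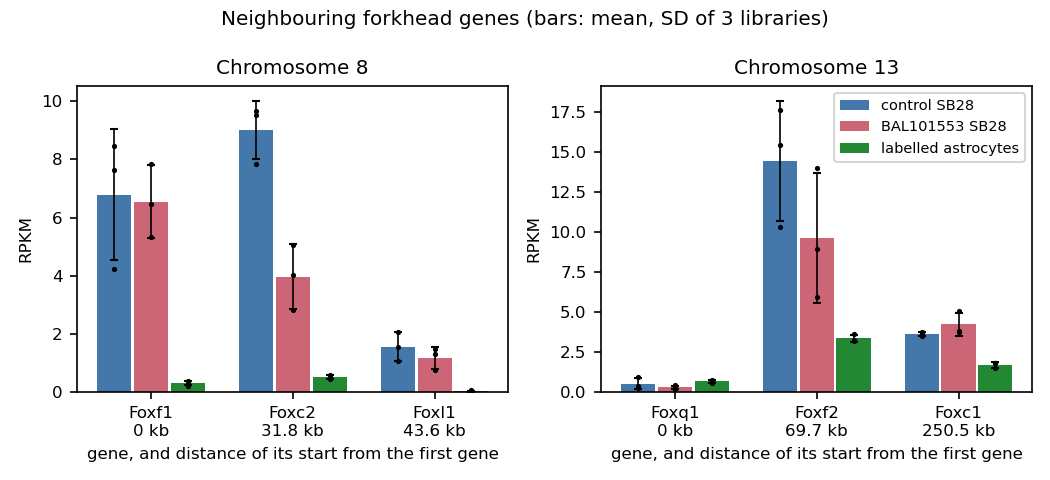
RPKM of the neighbouring forkhead genes of chromosome 8 (left) and chromosome 13 (right), with bars for the mean, whiskers for the SD and points for the 3 libraries of each group; the distance of each start from that of the first gene is given under its name. All 6 genes but Foxq1 are lower in the libraries labelled astrocytes than in both SB28 groups, and Foxc2 is lower after BAL101553.

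Tbx15, a factor of skeleton and skin, and Tbx18, a factor of mural cells and the epicardium, were the only Tbx genes on in SB28 cells. Tbx15 (chromosome 3, 99240381 to 99354259) had 57.9, 63.7 and 58.0 CPM in control 1, 2 and 3 and 70.0, 87.9 and 58.6 CPM in BAL101553 1, 2 and 3. Tbx18 (chromosome 9, 87702800 to 87731260) had 72.3, 74.7 and 57.4 CPM in control and 59.5, 48.9 and 48.1 CPM in BAL101553 libraries. By RPKM the genes were alike in control cells, with medians of 15.5 and 15.3. Foxs1, a factor of pericytes and sensory neurons (chromosome 2, 152931898 to 152933208), ranked first among the members in control cells with a median RPKM of 37.8, at 49.5, 53.2 and 42.8 CPM. Foxl2, known from ovary and pituitary, was on at 6.96 to 9.17 CPM in control and 3.05 to 8.07 CPM in BAL101553 libraries.

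Mural cells of vessels carry several of these factors, and their markers were read beside them. In a list of 6 mural cell genes, Pdgfrb and Cspg4 were on in all SB28 libraries, with Pdgfrb at 216 to 371 CPM, whereas Kcnj8 and Abcc9 had at most 3 reads in an SB28 library and Vtn at most 12 reads. The list summed to 282 to 497 CPM in control libraries, 483 to 646 CPM in BAL101553 libraries and 1105 to 1280 CPM in the libraries labelled astrocytes, which held all 6 on while Tbx18 there was at 6.31 to 7.03 CPM. Rgs5, another of the 6, was at 2.31 to 7.003 CPM in control and 0.274 to 1.42 CPM in BAL101553 libraries, against 94.4 to 116 CPM in the libraries labelled astrocytes.

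Promoter windows, 250 bases before to 50 after a start, were matched in RefSeq (GRCm38.p6) for 60 of the 98 symbols. Shown are those of the neighbours Foxc1 and Foxf2 and of Tbx18, which were on in SB28 cells, and of Hoxd13, which had 0 reads in all 9 libraries. CG pairs, the sites of vertebrate DNA methylation, are in capitals, and each is written in the direction of its gene.
Foxc1 (chr13:31806396-31806695, plus strand): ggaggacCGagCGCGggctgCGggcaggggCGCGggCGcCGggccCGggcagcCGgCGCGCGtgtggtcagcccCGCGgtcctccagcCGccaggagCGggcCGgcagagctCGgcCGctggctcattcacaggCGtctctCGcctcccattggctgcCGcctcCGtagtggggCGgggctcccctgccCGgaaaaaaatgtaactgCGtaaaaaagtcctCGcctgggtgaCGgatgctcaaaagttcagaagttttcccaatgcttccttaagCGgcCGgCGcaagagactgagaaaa
Foxf2 (chr13:31625566-31625865, plus strand): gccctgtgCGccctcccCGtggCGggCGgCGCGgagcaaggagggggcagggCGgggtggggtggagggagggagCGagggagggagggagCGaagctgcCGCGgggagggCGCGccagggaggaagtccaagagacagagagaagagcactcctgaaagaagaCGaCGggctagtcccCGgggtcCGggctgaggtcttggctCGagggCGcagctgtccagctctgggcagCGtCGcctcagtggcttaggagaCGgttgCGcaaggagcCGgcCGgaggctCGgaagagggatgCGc
Tbx18 (chr9:87731211-87731510, minus strand): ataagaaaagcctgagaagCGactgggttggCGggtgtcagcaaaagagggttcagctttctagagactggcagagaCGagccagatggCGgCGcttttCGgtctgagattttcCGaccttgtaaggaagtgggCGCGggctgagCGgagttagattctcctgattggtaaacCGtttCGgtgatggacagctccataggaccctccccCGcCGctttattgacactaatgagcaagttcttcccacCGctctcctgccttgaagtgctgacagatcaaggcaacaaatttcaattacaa
Hoxd13 (chr2:74667975-74668274, plus strand): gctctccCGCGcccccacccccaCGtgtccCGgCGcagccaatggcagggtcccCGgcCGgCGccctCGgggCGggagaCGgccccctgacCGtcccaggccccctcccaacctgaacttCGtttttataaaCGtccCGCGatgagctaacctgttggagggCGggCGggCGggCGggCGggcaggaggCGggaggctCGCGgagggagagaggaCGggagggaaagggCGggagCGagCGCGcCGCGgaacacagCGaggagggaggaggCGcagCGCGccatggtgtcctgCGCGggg
These windows hold 32, 27, 15 and 37 CG pairs, so that the silent Hoxd13 has the most of the 4. Over the 17 Fox and Tbx windows of genes on in at least 1 group the median was 27 CG pairs (range 5 to 59), over the 21 of Fox and Tbx genes on in no group it was 10 (range 1 to 31), and over 22 Hox windows it was 17.5 (range 4 to 45). The median of all 17224 symbols with a window was 13. The ranges overlap, and DNA methylation was not measured.

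The remaining Fox genes on in SB28 cells are ones that most cell types use. Foxk2 and Foxk1, regulators of glucose and autophagy genes, had 170 to 182 and 91.1 to 95.8 CPM in control libraries and 135 to 182 and 102 to 111 CPM in BAL101553 libraries. Foxp1 and Foxp4, repressors of many developing tissues, had 102 to 122 and 70.4 to 75.2 CPM in control and 85.3 to 99.6 and 69.6 to 87.1 CPM in BAL101553 libraries, whereas Foxp2, known from speech circuits, had 0 reads in 5 of the 6 SB28 libraries and 1 in the other. Foxp3 and Tbx21, which define regulatory and type 1 helper T cells, had 0 reads in all 6. Of the FoxO factors, Foxo1 had 20.7 to 38.2 CPM, Foxo3 27.7 to 43.4 CPM and Foxo4 36.3 to 50.3 CPM over the 6 SB28 libraries, and Foxo6, the form of neurons, at most 10 reads. Foxj2, Foxj3, Foxn2 and Foxn3 were on in all 3 groups. Foxm1, which drives genes of the G2 and M phases, had 96.6, 101 and 88.5 CPM in control and 93.1, 93.7 and 100 CPM in BAL101553 libraries.

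**Figure D2:**
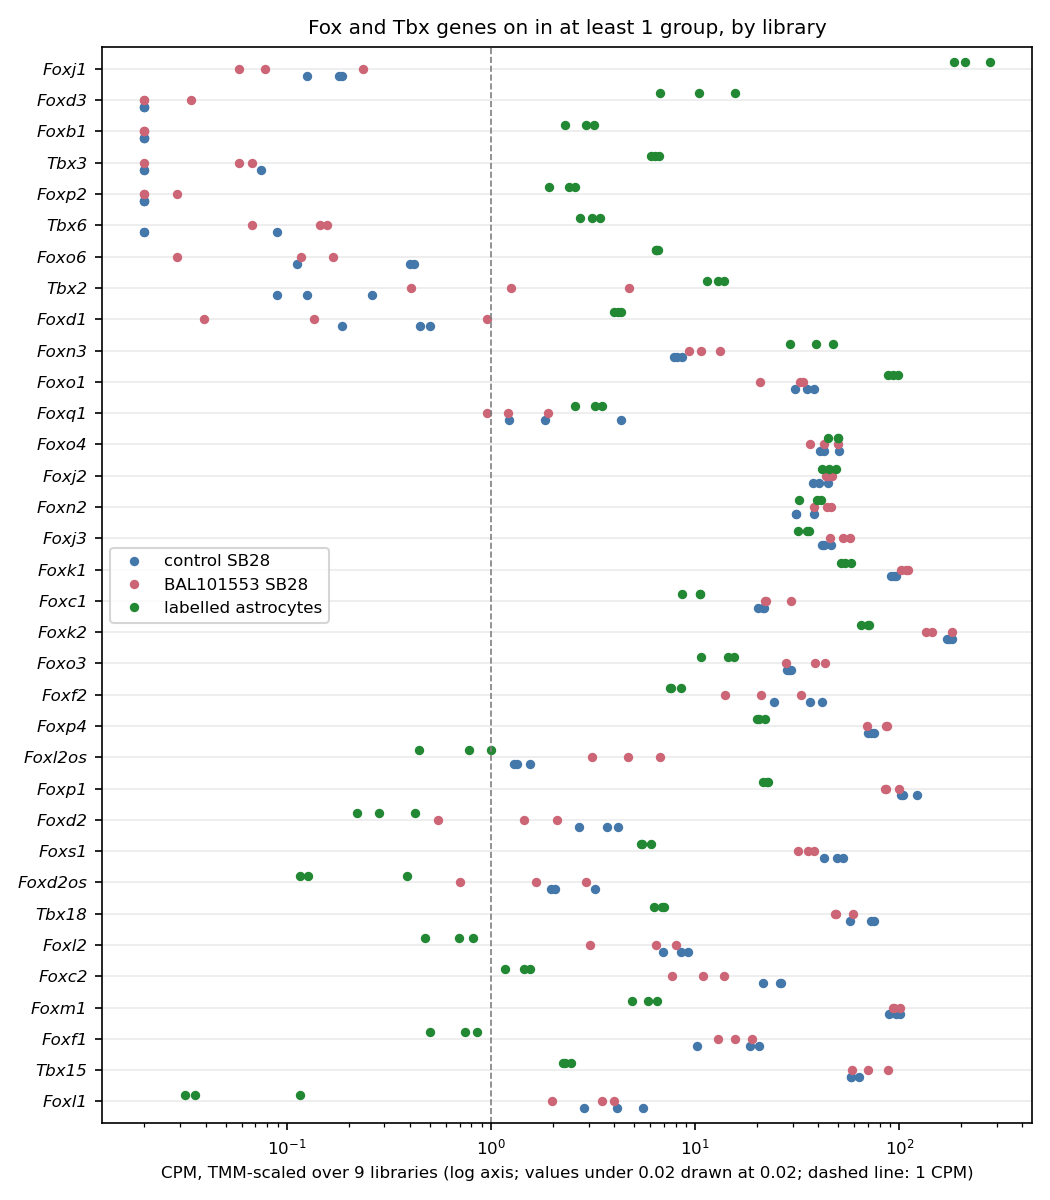
CPM of 34 of the 35 Fox and Tbx genes on in at least 1 group, 1 point per library on a log axis, ordered by the level in the libraries labelled astrocytes relative to the SB28 libraries. Foxj1, Foxd3 and Foxb1 at the top are near 0 in SB28 cells, Foxo4, Foxj2 and Foxn2 in the middle overlap between groups, and Foxl1, Tbx15 and Foxf1 at the bottom are highest in SB28 cells.

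BAL101553 SB28 cells were compared with control SB28 cells for changes in these factors. After the filter on low counts 30 of the 98 members were tested, and 4 passed: Tbx2 and Foxl2os rose and Foxc2 and Foxs1 fell. Tbx2 entered the test only through the BAL101553 libraries, where it was high. Of all 12633 genes tested 14.7% passed (8.64% higher and 6.09% lower), so that 4 of 30 is a share near the background. The groups did not overlap for 9 of the 30 members and for 39.7% of all genes tested. The median log2 fold change of the tested members was -0.01 and that of all genes tested 0.02, and 0.08 and 0.10 without scaling factors. The number of members called by edgeR depended on single libraries: without control 3 it was 0, where 193 genes in all were called and 3202 had an unadjusted p under 0.05, without control 1 or BAL101553 3 it was 1, and without control 2 or BAL101553 2 it was 2. Without scaling factors 77.4% rather than 58.7% of the calls over all genes were higher after BAL101553.

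Foxc2 (chromosome 8, 121116171 to 121118895) had 21.4, 26.4 and 25.9 CPM in control 1, 2 and 3 and 13.8, 7.71 and 10.9 CPM in BAL101553 1, 2 and 3. All treated libraries lay below all control libraries, with a log2 fold change of -1.18 (SE 0.21, adjusted p = 0.0159, edgeR). The call was lost without control 3 (-1.14, adjusted p = 0.0676) and without BAL101553 3 (-1.18, adjusted p = 0.0514). The summed level of the 6 endothelial genes was lower in the same libraries, at 511 to 638 against 727 to 860 CPM with no overlap. All 6 were tested and 1 fell, beside 6.09% of all genes tested. This was Cdh5 (log2 fold change -0.52, SE 0.10, adjusted p = 0.0195, edgeR), and the median over the list was -0.61 beside 0.02 for all genes. The part of these genes in the fall of Foxc2 was not tested. The neighbours of Foxc2 did not pass the test, with log2 fold changes of -0.04 for Foxf1 (SE 0.26, adjusted p = 0.924) and -0.40 for Foxl1 (SE 0.34, adjusted p = 0.439). The paralog Foxc1 had a log2 fold change of 0.22 (SE 0.14, adjusted p = 0.312, edgeR).

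Foxs1 had 35.7, 31.8 and 38.1 CPM in BAL101553 1, 2 and 3, all below the control libraries, and a log2 fold change of -0.46 (SE 0.12, adjusted p = 0.0421, edgeR). This call was lost without any 1 of the 6 libraries (adjusted p from 0.0716 to 0.106) and without scaling factors (adjusted p = 0.0926). Tbx18 had a log2 fold change of -0.38 (SE 0.14) and did not pass (adjusted p = 0.0953, edgeR). Rgs5, the mural gene given above, fell by 2.36 on the log2 scale (SE 0.59, adjusted p = 0.0371, edgeR), and Pdgfrb rose by 0.57 (SE 0.10, adjusted p = 0.0144). Of the 6 mural genes 3 were tested, 1 higher and 1 lower, beside 8.64% and 6.09% of all genes tested. The part of the mural genes in the fall of Foxs1 was not tested.

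Tbx2, a repressor of cell cycle inhibitors (chromosome 11, 85832551 to 85841948), had 2, 7 and 3 reads in control 1, 2 and 3, and 12, 121 and 43 reads in BAL101553 1, 2 and 3. In CPM these are 0.0894, 0.261 and 0.125 against 0.405, 4.73 and 1.25. The groups did not overlap, but the level in BAL101553 2 was well above the other treated libraries. Tbx2, with at most 7 reads in a control library, passed the filter on low counts only through the BAL101553 libraries, where it was high. Its call is therefore not read as support for a rise. The log2 fold change was 3.67 (SE 0.97, adjusted p = 0.0425, edgeR), and 2.34 (adjusted p = 0.0572) without BAL101553 2. The call was also lost without control 1 (adjusted p = 0.121), control 2 (adjusted p = 0.0783), control 3 (adjusted p = 0.139) or BAL101553 3 (adjusted p = 0.0712). The fibroblast gene Lum stood out in the same library, with 4.42 CPM in BAL101553 2 against 0.167 to 0.402 CPM in the 5 other SB28 libraries. Lum is 1 of 5 meningeal fibroblast genes, of which 3 were tested. Dcn and Col1a1 rose and none fell, beside 8.64% higher and 6.09% lower of all genes tested. Igf2, also tested, did not pass (log2 fold change -0.62, SE 0.44, adjusted p = 0.354, edgeR). The list summed to 3589 to 4486 CPM in control libraries, with Slc6a13 at no more than 1 read in an SB28 library. In BAL101553 1, 2 and 3 it summed to 5736, 5779 and 5560 CPM, so the sum was alike in the treated libraries. The part of the list in the result for Tbx2 was not tested. Tbx4, the neighbour of Tbx2, had at most 2 reads in an SB28 library.

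Foxl2os had 1.30, 1.34 and 1.54 CPM in control 1, 2 and 3 and 4.66, 3.13 and 6.71 CPM in BAL101553 1, 2 and 3, again with no overlap (log2 fold change 1.80, SE 0.32, adjusted p = 0.0148, edgeR). The call was lost without control 1 (adjusted p = 0.0579) and without control 3 (adjusted p = 0.0646). Foxl2, its divergent partner, went the other way without passing the test (log2 fold change -0.48, SE 0.33, adjusted p = 0.338). The genes start head to head on chromosome 9 and overlap by 12 bases in GENCODE vM21. Whether the counting used strand is not given in the sources used here, so reads of the pair may not be cleanly separated. Their RefSeq promoter windows share the stretch below, shown because it lies before both RefSeq starts, with CG pairs in capitals. The RefSeq start of Foxl2 lies 319 bases from its GENCODE start at 98955288. By GENCODE the stretch therefore lies within Foxl2 and not before it.
Shared by Foxl2 and Foxl2os (chr9:98955357-98955560, plus strand): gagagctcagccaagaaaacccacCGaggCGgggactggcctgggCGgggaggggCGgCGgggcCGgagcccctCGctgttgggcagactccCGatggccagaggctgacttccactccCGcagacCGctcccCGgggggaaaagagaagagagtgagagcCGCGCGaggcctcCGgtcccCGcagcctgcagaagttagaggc
The 204 bases hold 16 CG pairs. Foxd2 and Foxd2os, the other such pair, lie 383 bases apart on chromosome 4. Foxd2 had 2.68, 3.69 and 4.17 CPM in control and 1.45, 0.548 and 2.09 CPM in BAL101553 libraries with no overlap, and did not pass (log2 fold change -1.34, SE 0.44, adjusted p = 0.0775, edgeR). Foxd2os had a log2 fold change of -0.44 (SE 0.48, adjusted p = 0.552).

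**Figure D3:**
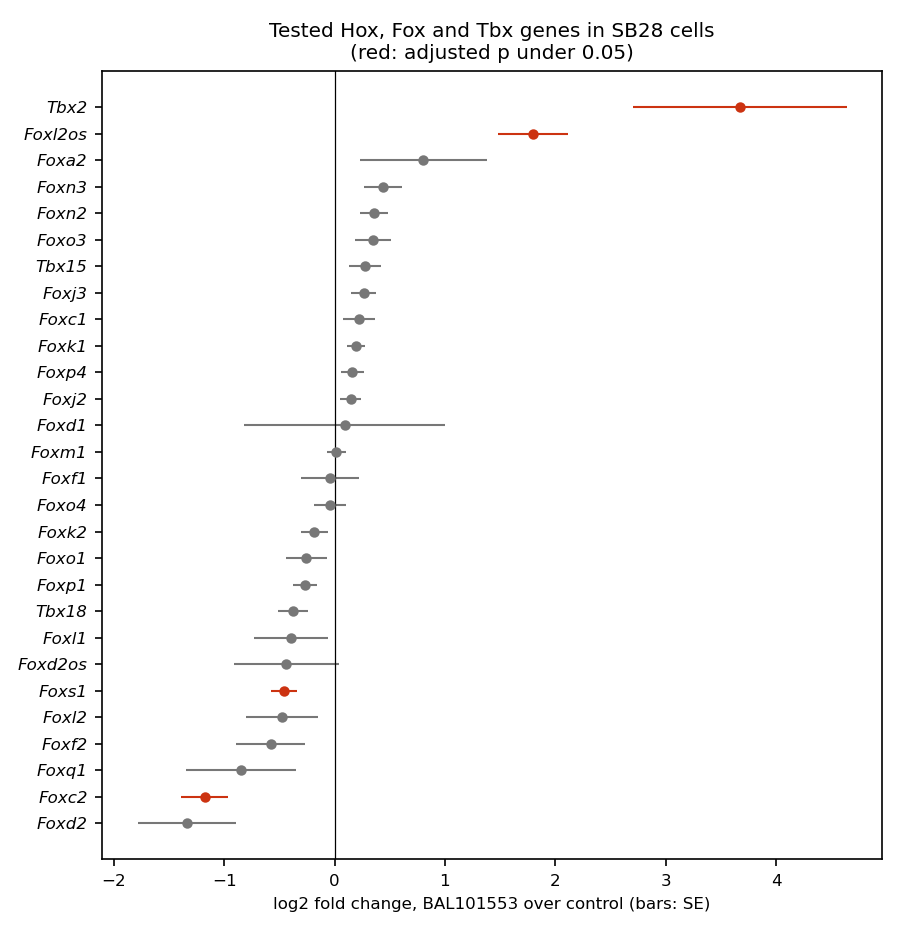
Log2 fold change of BAL101553 over control with its SE for 28 of the 30 tested members, in order of size, with those past the threshold in red. Tbx2 and Foxl2os lie to the right and Foxc2 and Foxs1 to the left, while the others did not pass.

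Genes downstream of the Fox factors were read as lists. Over all 12633 genes tested 8.64% rose and 6.09% fell, and the counts below are too small to read as a change of a list. Of 16 genes known as FOXM1 targets, all were tested, 3 rose after BAL101553 (Cdc25b, Cenpf and Bub1b) and 0 fell, with a median log2 fold change of 0.03 beside 0.02 for all genes. Cdc25b went from 57.6, 60.7 and 55.3 CPM to 96.4, 91.2 and 94.9 CPM, while Foxm1 itself had a log2 fold change of 0.01 (SE 0.09, adjusted p = 0.917, edgeR). Of 15 tested FOXO targets 2 rose, Cdkn1b and Gadd45a, and 0 fell, with a median of 0.25 beside 0.02 for all genes. Foxo1, Foxo3 and Foxo4 did not pass, with log2 fold changes of -0.25 (SE 0.19), 0.35 (SE 0.16) and -0.04 (SE 0.14). Of the other T-box genes, Mga, which pairs a T-box with a MAX-binding domain, rose by 0.45 on the log2 scale (SE 0.12, adjusted p = 0.0412), and Eomes did not pass (log2 fold change -1.65, SE 0.47, adjusted p = 0.0539, edgeR). Of the 19 brain position genes 8 were tested and 1 rose, Dlx1 (log2 fold change 2.13, SE 0.42, adjusted p = 0.0193, edgeR), and 0 fell.

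The libraries labelled astrocytes share their treatment label with the BAL101553 SB28 group and were compared with it. Of 98 members 38 were tested, 14 were higher and 21 lower in the libraries labelled astrocytes, beside 85.1% of all 15314 genes tested (46.3% higher and 38.9% lower). A call is thus the rule between these materials for any gene. A member that entered the test only through the group where it was high had to differ, so the calls are not read as a property of the members. Against control cells, which shares the libraries labelled astrocytes, 13 were higher and 21 lower of 38 tested, beside 88.3% of all 15207 genes (48.8% higher and 39.5% lower). The median log2 fold change of the tested members was -1.10 against BAL101553, beside 0.18 for all genes, and -0.90 against control, beside 0.25. Without scaling factors the median of all genes against BAL101553 was 0.39, and that of the members -0.89. The members' median depends on the filter: with every gene of at least 1 count kept, 59 members were tested and it was 1.14 against BAL101553 and 0.29 against control.

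Foxj1, the switch for motile cilia (chromosome 11, 116330704 to 116335399), had the highest RPKM of all members in any group. It was at 210, 186 and 277 CPM in astrocytes 1, 2 and 3 and at 0.0581 to 0.236 CPM in the 6 SB28 libraries, from 2 to 7 reads each (log2 fold change against BAL101553 10.75, SE 0.33). Foxj1 entered this test only through the libraries labelled astrocytes, so no p-value is given for it. The groups are far apart. All 10 ependymal and motile cilia genes were on in the libraries labelled astrocytes and 0 in SB28 cells. Ccdc153, one of them, had 145, 126 and 220 CPM, and the list summed to 731, 647 and 1034 CPM, in the same order of libraries as Foxj1. The choroid plexus list summed to 1740, 2367 and 4109 CPM, also highest in astrocytes 3.

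**Figure D4:**
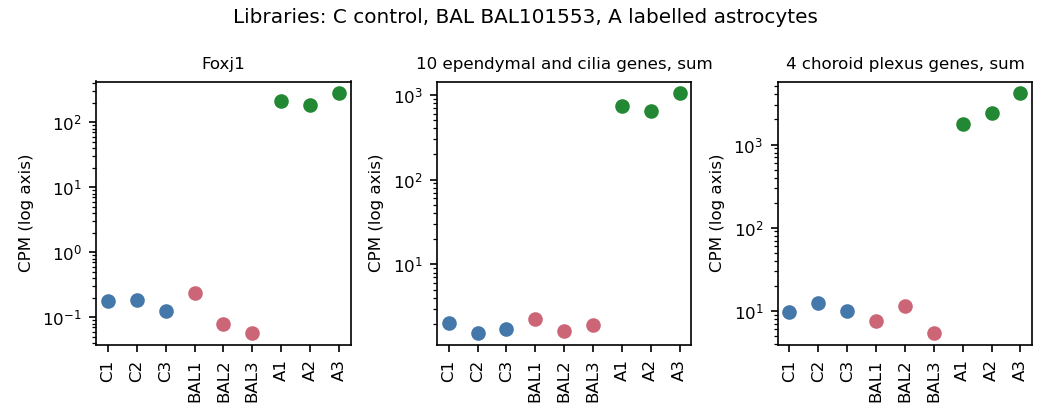
CPM on log axes in each of the 9 libraries of Foxj1, of the sum of 10 ependymal and motile cilia genes, and of the sum of 4 choroid plexus genes, with groups by colour. The 3 libraries labelled astrocytes lie far above the 6 SB28 libraries in all 3 panels, and astrocytes 3 is the highest in each.

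Other members were on in the libraries labelled astrocytes alone. Foxd3, a neural crest factor, had 15.7, 10.4 and 6.74 CPM there, 0 reads in the control libraries and 1 read in the BAL101553 libraries together. Set against 3 reads per control library, its lowest such library was at least 54.6-fold higher. These are 498, 294 and 175 reads, highest in astrocytes 1, whereas Foxj1 was highest in astrocytes 3. Foxb1, a factor of mammillary body and thalamus, had 3.19, 2.30 and 2.93 CPM and 0 reads in all 6 SB28 libraries, at least 18.6-fold higher than 3 reads per control library. Foxp2 had 2.59, 2.40 and 1.93 CPM, at least 15.6-fold higher by the same measure. Foxo6 was even across the libraries at 6.56, 6.43 and 6.44 CPM. Foxd1, a factor of hypothalamus and stroma, had 4.16, 4.31 and 4.01 CPM there and 0.0391 to 0.958 CPM in SB28 cells.

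Another 3 Tbx genes were on only there by the 1 CPM rule. Tbx2 had 12.96, 13.9 and 11.5 CPM, Tbx3, its close relative, 6.37, 6.61 and 6.09 CPM, and Tbx6, a factor of somites, 3.12, 3.43 and 2.74 CPM. Tbx3 had at most 2 reads and Tbx6 at most 5 reads in an SB28 library. Tbx1, the pharyngeal factor, had 0.757, 1.63 and 1.81 CPM in astrocytes 1, 2 and 3 and at most 3 reads in an SB28 library, and Foxa1 had 0.599, 0.389 and 1.002 CPM against at most 3 reads. Genomic neighbours were not on with them: Tbx4 beside Tbx2 had 2, 10 and 5 reads in these libraries, and Tbx5, 162 kb from Tbx3 on chromosome 5, had 0 reads in all 9.

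The members lower in the libraries labelled astrocytes include the mesenchymal group of SB28 cells. Tbx15 was at 2.24, 2.30 and 2.47 CPM (log2 fold change against BAL101553 -4.98, SE 0.17, adjusted p = 9.65e-08, edgeR) and Tbx18 at 6.31, 7.03 and 6.90 CPM (-2.99, SE 0.13). Foxf1 (-4.52, SE 0.26), Foxc2 (-3.002, SE 0.27) and Foxs1 (-2.68, SE 0.13) were lower in all 3 libraries than in any SB28 library. Foxc2 was at 1.17, 1.45 and 1.54 CPM and Foxs1 at 5.46, 6.04 and 5.43 CPM. Foxl2, Foxl2os and Foxd2os were at 0.473 to 0.813, 0.442 to 1.002 and 0.116 to 0.389 CPM. Foxf2 at 7.63, 8.52 and 7.52 CPM and Foxc1 at 8.58, 10.5 and 10.6 CPM were still on in these libraries, at log2 fold changes of -1.56 (SE 0.30) and -1.35 (SE 0.16).

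Foxm1 was at 6.47, 4.88 and 5.86 CPM in the libraries labelled astrocytes (log2 fold change against BAL101553 -4.10, SE 0.12, adjusted p = 4.69e-08, edgeR). All 16 FOXM1 targets were lower with it, with a median log2 fold change of -4.49, beside 38.9% lower and a median of 0.18 over all genes tested, and the list summed to 51.2 to 57.7 CPM against 920 to 1043 CPM in BAL101553 and 900 to 970 CPM in control libraries. Among the FoxO genes, Foxo1 was higher at 98.1, 93.3 and 87.9 CPM (1.65, SE 0.18), Foxo3 was lower at 14.5, 15.5 and 10.7 CPM (-1.46, SE 0.20), and Foxo4 at 49.9, 49.7 and 44.9 CPM did not pass (0.13, SE 0.12, adjusted p = 0.332, edgeR). Of 15 tested FOXO targets 7 were higher and 4 lower, beside 46.3% higher and 38.9% lower of all genes, a share near the background. Foxk1, Foxk2, Foxp1, Foxp4 and Foxj3 were lower, by 0.64 to 2.06 on the log2 scale, and Foxn3 was higher at 39.2, 47.2 and 29.3 CPM (1.77, SE 0.20). Foxj2 at 45.2, 49.1 and 42.0 CPM (-0.02, SE 0.09) and Foxn2 at 41.1, 39.4 and 32.1 CPM (-0.22, SE 0.12) overlapped with the BAL101553 libraries and did not pass, in this comparison or in that with control.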

How the data were processed

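RNA was sequenced from 6 libraries of SB28 cells grown in mouse brain and 3 libraries labelled astrocytes. As the study's text describes, though for a different deposit, the authors made stranded libraries with 50 bp reads, mapped them with TopHat and counted reads with HTSeq and featureCounts. The submitters' processing notes name mm10 and HTSeq 0.6.1. The deposited table holds counts, in whole reads per gene symbol and not normalized by the authors. Which counter made the table, its annotation, its strand setting and its treatment of reads shared between genes are not given in the sources used here.

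The tests were run with edgeR 4.0.16, limma 3.58.1 and R 4.3.3. Each comparison used the 2 groups alone, filterByExpr, TMM, the quasi-likelihood test, and Benjamini-Hochberg adjustment over all genes tested, two-sided, with a threshold of 0.05. SE was taken as the size of the log2 fold change over the root of its F statistic. DESeq2 1.42.0 was an alternative. The procedure was tested on simulated data. RPKM used the summed exon length of each gene in GENCODE vM21 on GRCm38, the assembly also called mm10, in which all 98 symbols matched. Symbols of 25 other rows had been turned into dates and were kept in library sizes. The members and lists were chosen with earlier results of these data known. Values in every SB28 library are given for members past the threshold between the SB28 groups. Members among the 10 highest by median RPKM in each group are given by library, as ranges, as mean and SD or as fold changes. The same holds for the 10 largest rises and falls against BAL101553 in the libraries labelled astrocytes whose groups did not overlap. No pair of libraries in a group agreed within sampling noise. The labels give no batch. Some members and list genes are counted in the totals and not reported here by name.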

Additional observations from a re-analysis of the deposited data

How the results depend on the processing

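Each value was recomputed with 1 choice changed: DESeq2, RLE size factors, no scaling factors, a filter of 1 count in any library or of 10 counts in every library, a model over all 9 libraries, the replicate number as a block, and each library left out. The number of members called between BAL101553 and control was 4, and lay between 0 and 3 without 1 library, while the other alternatives gave 3 to 5. The number against BAL101553 in the libraries labelled astrocytes was 35, and 22 with the filter of 10 counts in every library, where 24 members were tested; against control it was 34, and 20 of 23 tested. With the filter of 1 count in any library, 59 members were tested in each, and 48 (24 higher) and 44 (21 higher) were called, against 14 and 13 higher in the main comparisons. Leaving out 1 library gave 36 to 37 and 34 to 36. Over all genes, the number called between BAL101553 and control was 1860, 2832 with DESeq2, 3022 with all 9 libraries and 193 to 1712 without 1 library.

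Of the members called in each comparison, no direction changed under any alternative that could be fitted. Of the 51 refits of the 4 members called between BAL101553 and control 17 missed the threshold, and 6 of 427 did for the libraries labelled astrocytes against control, all for Foxj3 and Foxl2os; against BAL101553 all 441 passed. With the replicate number as a block 4 members were called between BAL101553 and control, and Foxs1 had an adjusted p of 0.0838; 35 and 34 were called in the libraries labelled astrocytes. Same-numbered libraries of these SB28 groups correlated at 0.00602 to 0.113, and 4 of 6 libraries best with their own number, so the numbers were not taken as pairs. The number of members on moved from 26 to between 22 and 27 in control cells, from 23 to between 19 and 28 after BAL101553, and from 29 to between 21 and 34 in the libraries labelled astrocytes, with thresholds of 0.5 or 2 CPM, 1 RPKM, 10 reads, or 1 library left out. At these depths a level of up to 3 reads cannot be told from 0.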

Other observations

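Some members were low but unevenly distributed. Foxa2, the floor plate and endoderm factor, had 13, 8 and 16 reads in control 1, 2 and 3 and 34, 7 and 42 reads in BAL101553 1, 2 and 3, and 0 reads in each library labelled astrocytes. Foxn1, the factor of thymus epithelium and hair, had 22, 11 and 6 reads in the control libraries, 10, 5 and 3 reads in the BAL101553 libraries and at most 1 read in a library labelled astrocytes. Halr1, a noncoding transcript beside the Hoxa cluster, had 2, 8 and 4 reads in control and 11, 10 and 42 reads in BAL101553 libraries, with a log2 fold change of 1.81 that did not pass (SE 0.66, adjusted p = 0.0981, edgeR). En1 and Lmx1b, factors of midbrain and hindbrain, were on in both SB28 groups at 2.03 to 5.91 and 1.68 to 5.06 CPM, and at most 0.193 and 0.578 CPM in the libraries labelled astrocytes. These genes were chosen after their values were seen.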
